A study of Mus musculus with 6 samples.

Results

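The genes described are 42 genes of DNA replication and S phase, listed by name, and measured in cultured mouse bone marrow cells. A member was every gene of the list with a probe set, a group of probes read as 1 signal, whose annotation gives that gene alone. This held for 41 of the 42 genes and 91 probe sets, out of 18193 genes measured in this way. Chaf1a is not analysed here. Each member was represented by its probe set with the highest mean signal over all arrays. All 41 of these passed the filter on dim probe sets, as did 82 of the 91 probe sets. The knockout cells, called DKO, came from mice without both cryptochromes (Cry 1/2 double KO), and the control cells, called WT, from wild-type mice, all of strain C57BL/6. Marrow of both genotypes was grown in Iscove's medium with 20% fetal bovine serum and 10 ng/ml interleukin-7, a growth factor of early B cells. Each genotype had 3 arrays of total RNA, numbered 1 to 3. No source used here gives the age of the mice, the days in culture, the time of day, or whether the arrays of a genotype came from separate animals. The p-values therefore describe the variation among these arrays alone, and that variation could be technical.

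Replication begins when the origin recognition complex, with CDC6 and CDT1, loads the MCM2 to MCM7 ring on DNA in G1. In S phase CDC45 and the GINS complex turn the ring into the active helicase, primase and the DNA polymerases copy both strands, and the PCNA clamp holds the polymerases on their template. Most of these genes are transcribed around the entry into S phase under the E2F factors, so their RNA is widely used as a sign of cycling cells. Pro-B and pre-B cells are among the cycling cells of the marrow. Cryptochromes repress the clock factors CLOCK and BMAL1, which bind E-box letters.

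The promoters of the listed genes are shown here for the letters that E2F and CLOCK with BMAL1 are known to bind. Whether these letters bear on the values of the members was not tested. In the RefSeq promoter table of GRCm38.p6, 34 of the 42 listed genes had 39 promoters, and Chaf1a, which is no measured member, is among these 34. Of these, 8 (20.5%) held TTTCCCGC, TTTCGCGC, TTTGCCGC or TTTGGCGC on either strand in the 250 bases before the start, and 1.86% of all 32851 promoters did. CCAAT was found in 56.4% of the listed genes' promoters and 33.8% of all, and the E-box CACGTG in 6 (15.4%) and 6.02%. The windows below are read 5′ to 3′ along the gene, with the matching letters in capitals, and overlapping matches were counted once per promoter.
Mcm5, E2F (chr8:75109340-75109379, plus strand): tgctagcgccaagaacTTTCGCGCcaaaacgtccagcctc
Mcm6, E2F (chr1:128359792-128359831, minus strand): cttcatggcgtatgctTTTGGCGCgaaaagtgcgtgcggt
Orc1, E2F (chr4:108579411-108579450, plus strand): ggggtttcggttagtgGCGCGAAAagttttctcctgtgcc
Cdc6, E2F (chr11:98907997-98908036, plus strand): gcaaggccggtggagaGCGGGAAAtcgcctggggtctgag
Uhrf1, E2F (chr17:56304112-56304151, plus strand): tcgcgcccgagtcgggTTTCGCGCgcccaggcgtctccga
Rpa1, E-box (chr11:75348430-75348467, minus strand): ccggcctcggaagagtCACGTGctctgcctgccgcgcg
The other promoters with the E2F letters were those of Mcm7, Pola1 and Rfc3, and those with the E-box included those of Pola2, Rfc1, Tyms and Chaf1a. A match is a description of the letters and not evidence of binding.

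WT 2 stood apart from the other 5 arrays. The control probe sets at the 3′ end of Actb read 824 times those at its 5′ end (1.47 to 2.05 on the other arrays), and its median signal was 115 (44.0 to 55.3). Across tested probe sets it correlated with the other arrays at 0.752 to 0.780, where these correlated among themselves at 0.936 to 0.984. The highest value, 0.984, was that of DKO 3 with WT 3, above DKO 1 with DKO 2 at 0.977. The lowest value without WT 2, 0.936, was that of DKO 3 with DKO 1. DKO 3 correlated with WT 1 at 0.968 and with DKO 2 at 0.952. By this measure DKO 3 was closer to WT 1 and WT 3 than to its own group, and the cause was not tested. Each array was centred on its median of log2(signal + 16). The array median minus the mean of the 6 medians was 0.82 on WT 2, -0.31 on DKO 3, -0.26 on WT 3 and -0.09 to -0.06 on the other arrays. The median difference between DKO and WT over all 27022 tested probe sets was then 0.21, and -0.10 with no centring and -0.02 without WT 2. Cry1 read 359 to 545 in DKO and 955 to 1533 in WT, and Cry2 read 133 to 178 and 102 to 145. The sources used here do not say whether these probe sets lie in the deleted parts. Counts of members that passed the test or differed in either direction are given with and without WT 2. For many single genes the difference is given without WT 2 alone. The probe set of each gene and the filter were set on all arrays and kept without WT 2. The values without WT 2 therefore still depend on that array in part.

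No replication gene passed the test between the genotypes, and DKO 3 lay apart from DKO 1 and DKO 2. On the 5 arrays other than WT 2 most members were low on DKO 1 and DKO 2, highest on DKO 3, and in between on WT 1 and WT 3. The median over members of the deviation from a gene's mean on these 5 arrays was -0.28 on DKO 1, -0.34 on DKO 2, 0.40 on DKO 3, -0.02 on WT 1 and 0.23 on WT 3, on the log2 scale. DKO 1 lay below both WT 1 and WT 3 in 35 of 41 members and DKO 2 in 36, and the shares over all 12627 tested genes were 40.5% and 39.6%. DKO 3 lay below both in 0 members and above both in 36, where the shares over all tested genes were 18.8% and 49.1%. DKO 3 exceeded DKO 1 and DKO 2 in all 41 members under centring on the array median, in 38 with no centring and in 36 with quantile normalization. Over all tested genes the corresponding shares were 53.8%, 36.5% and 41.97%. The exceptions were Cdt1, Gins2 and Prim1 with no centring, and also Mcm6 and Pold1 with quantile normalization. DKO 3 lay above both WT 1 and WT 3 in 26 members with either of these scalings, where the shares over all tested genes were 32.9% with no centring and 37.8% with quantile normalization. It lay below both in 4 and 5 members. The gap between DKO 3 and the mean of DKO 1 and DKO 2 had a median of 0.74 over members and 0.17 over all tested genes, and 0.51 and -0.06 with no centring. DKO 1 and DKO 2 differed from each other by a median of 0.11, and WT 1 and WT 3 by 0.26.

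**Figure D1:**
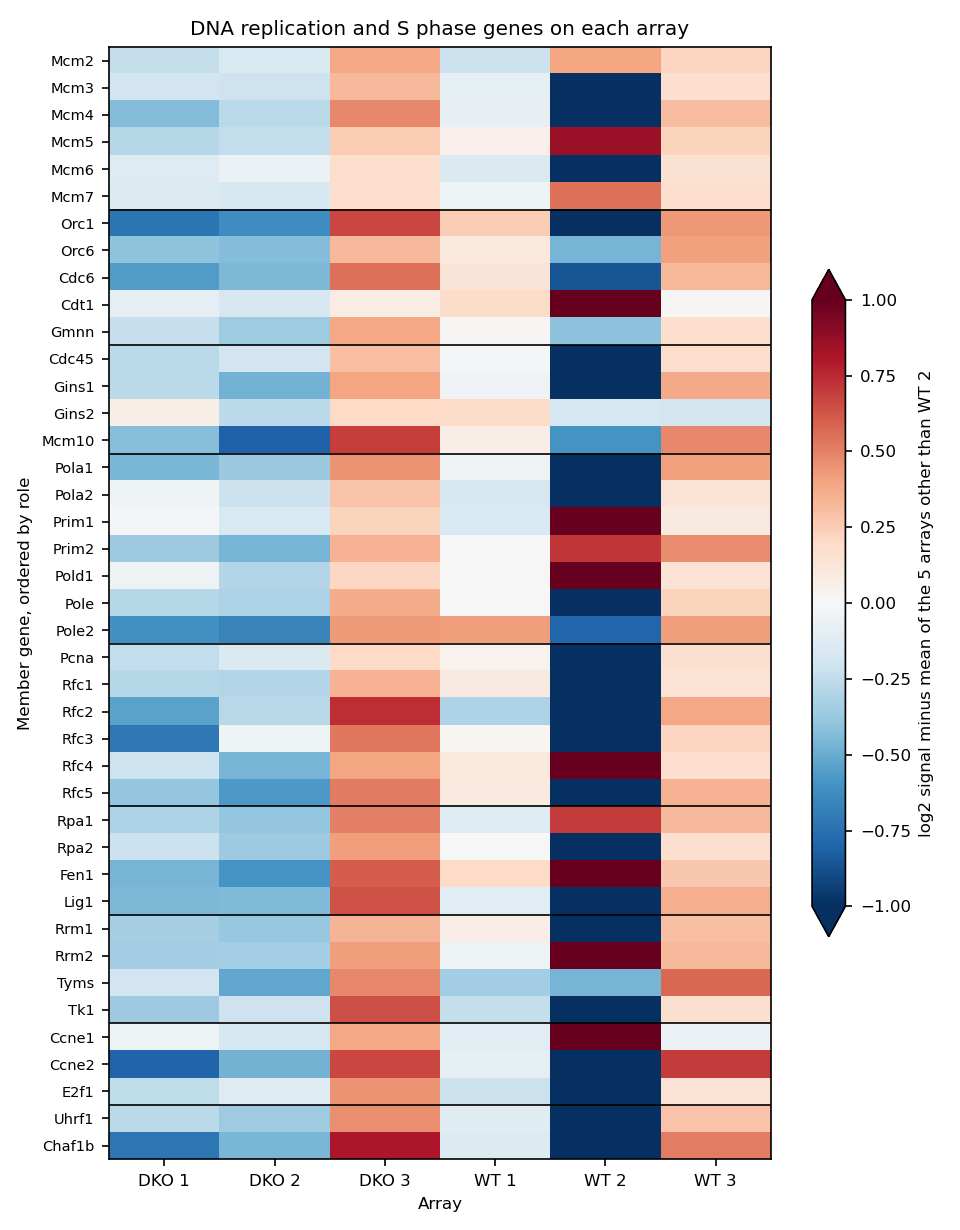
Heat map of the 41 measured members (rows, ordered by role, with lines between roles) on the 6 arrays (columns). Colour gives the log2 signal after centring minus the gene's mean over the 5 arrays other than WT 2, and the scale ends at -1 and 1. Blue marks low and red marks high values. DKO 1 and DKO 2 are mostly blue, DKO 3 is red in all 41 rows, and WT 2 is below the other 5 arrays in 26 rows and above them in 12.

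With all 6 arrays limma called 0 of 41 members at an adjusted p under 0.05, and adjusted p ran from 0.822 to 0.998. Over all tested probe sets it called 0.0074% higher and 0% lower in DKO. At an unadjusted p under 0.05 it again counted 0 members, where 1.81% of probe sets were higher and 1.31% lower. The groups did not overlap in 0 members, where 6.97% of probe sets were higher and 3.29% lower without overlap. Without WT 2 limma also called 0 members, with adjusted p from 0.948 to 1.00, and 0 at an unadjusted p under 0.05. The background was then 0.0185% higher and 0.0074% lower by adjusted p, and 2.28% and 2.08% by unadjusted p. The groups did not overlap in 0 members, where 10.3% and 8.14% of probe sets did not overlap. The absence of calls does not show equal levels. With all 6 arrays the standard error of a member's log2 difference had a median of 0.54 (0.25 to 1.21), and without WT 2 it was 0.28 (0.15 to 0.47). The 95% interval lay within a fold of 2 in either direction for 5 members with all arrays and for 26 without WT 2.

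The direction of the mean difference depended on WT 2. With all 6 arrays the mean signal in DKO was higher for 25 members and lower for 16. The median of their log2 differences was 0.19, where 8862 of 12627 tested genes were higher and their median was 0.30. Without WT 2, 6 members were higher and 35 lower, with a median of -0.19, where 6523 of 12627 genes were higher and their median was 0.01. Between these fits 23 members changed sign, 21 of them from higher to lower, and 18 moved by over 1.5 times in fold. The number with lower mean signal with all arrays was 25 under quantile normalization, 22 with no centring and 6 when a gene's probe sets were averaged. Without WT 2 the number lower was 33 to 36 under the other scalings, pseudocounts and rules for a gene's probe set. It also moved with single arrays. Without WT 2 and DKO 3 it was 41, with a median of -0.44, and without WT 2 and WT 3 it was 25, with a median of -0.08.

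**Figure D2:**
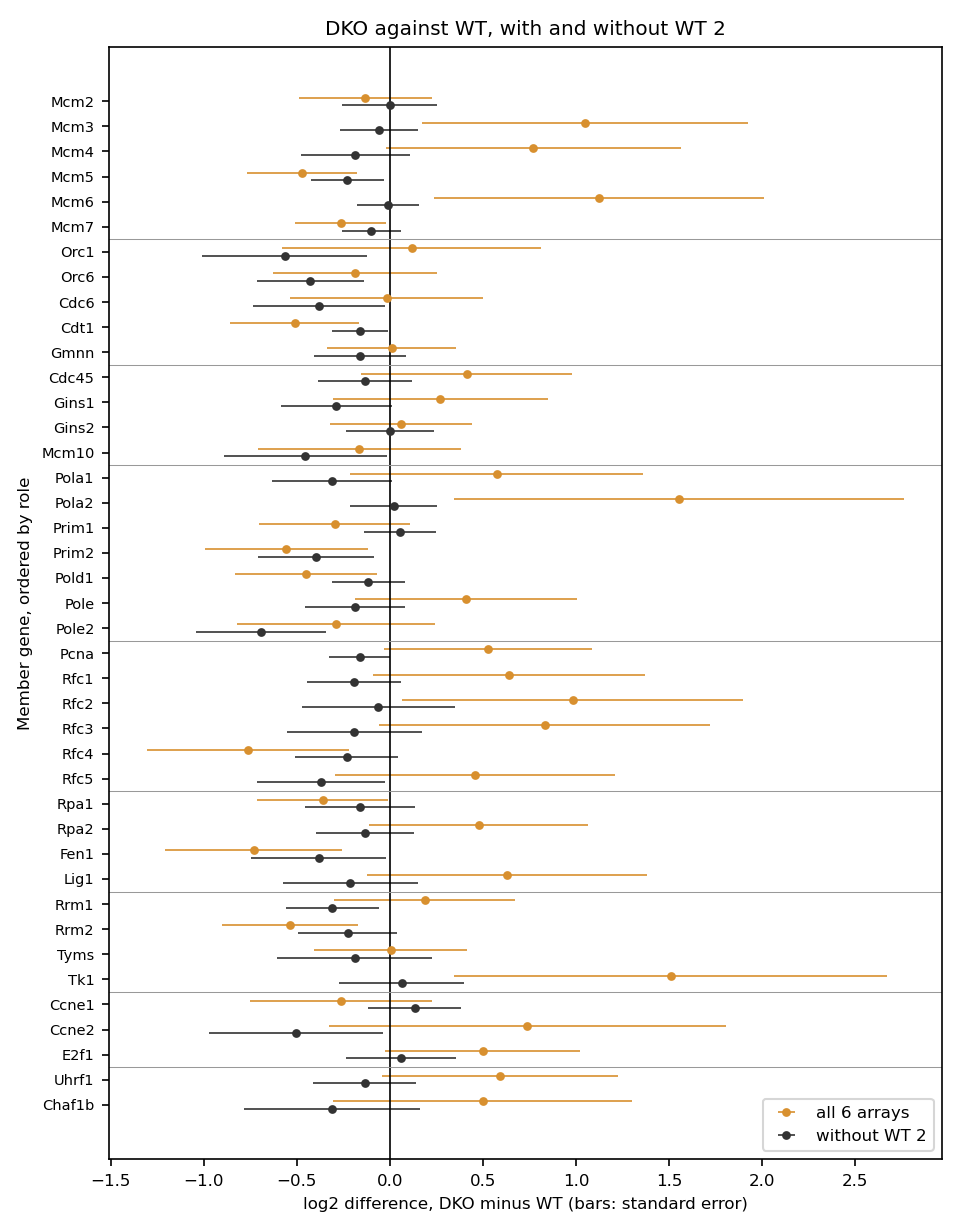
Difference in log2 signal between DKO and WT (horizontal axis) for the 41 members (vertical axis, ordered by role), from all 6 arrays in orange and without WT 2 in black. Points are limma estimates and bars are standard errors. Without WT 2 the points lie between -0.69 and 0.13 and with all arrays between -0.76 and 1.56, with longer bars.

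In what follows the deposited signal of a member's brightest probe set is listed for arrays 1, 2 and 3 of each genotype in that order, and a difference is the log2 difference of DKO minus WT. The subunits of the MCM ring, which unwinds DNA ahead of the fork, differed by -0.23 to 0.00 without WT 2, with all 6 on the lower side and a median of -0.08. With all arrays 3 subunits were higher and 3 lower. Mcm2 read 4124, 4277 and 5366 in DKO and 4135, 11791 and 4917 in WT, and Mcm3 read 9968, 9682 and 12016 in DKO and 10486, 2140 and 11125 in WT. Both were highest on DKO 3 among the arrays other than WT 2. In deposited signal WT 2 was far above the rest for Mcm2 and far below for Mcm3. After centring WT 2 was level with DKO 3 for Mcm2, at 12.711 and 12.706 on the log2 scale, and still far below for Mcm3. Mcm4 read 8110, 8907 and 12862 in DKO and 10185, 2966 and 11806 in WT, so that DKO 3 was the highest array and DKO 1 the lowest but for WT 2. The difference of Mcm4 was 0.77 ± 0.79 (SE) with all arrays and -0.19 ± 0.29 without WT 2. Mcm5 read 14045, 14104 and 17150 in DKO and 17471, 57381 and 17371 in WT, with a difference of -0.23 ± 0.20 without WT 2, the largest of the ring. Mcm6 read 12376, 12720 and 12878 in DKO and 12090, 2355 and 13103 in WT, and Mcm7 read 16874, 16235 and 17656 in DKO and 17655, 50092 and 18148 in WT. The 5 arrays other than WT 2 spanned 0.32 for Mcm6 and 0.34 for Mcm7 on the log2 scale, among the narrowest ranges of all members, and the groups overlapped in each of the 6 subunits.

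Among the genes that license origins, Orc1 and Orc6 encode subunits of the origin recognition complex, CDC6 and CDT1 load the MCM ring, and geminin, from Gmnn, binds CDT1 and stops a second loading. All 5 were lower in DKO without WT 2, and with all arrays 3 were lower and 2 higher. Orc1 read 290, 307 and 662 in DKO and 578, 270 and 579 in WT, a difference of -0.57 ± 0.44 (SE) without WT 2 (adjusted p by limma = 0.948). In deposited signal DKO 3 had the highest Orc1 value and DKO 1 and DKO 2 were at about the level of WT 2. After centring WT 2 was lower, at 7.34 on the log2 scale against 8.32 on DKO 1 and 8.43 on DKO 2. The log2 values of the knockout arrays spread over 1.40. Orc6 read 1810, 1736 and 2524 in DKO and 2544, 3200 and 2776 in WT, with all 3 knockout arrays below each WT array in deposited signal. Centring placed DKO 3 above WT 1, and WT 2 below all other arrays. The difference of Orc6 was -0.43 ± 0.29 without WT 2. Cdc6 read 1577, 1661 and 2874 in DKO and 2506, 2355 and 2550 in WT, again with DKO 1 and DKO 2 lowest in deposited signal. After centring WT 2 was the lowest array for Cdc6, at 10.395. Cdt1 read 11247, 10516 and 10648 in DKO and 13468, 49289 and 10568 in WT and was about level on the 5 arrays other than WT 2, over a log2 range of 0.35. Gmnn read 6291, 5650 and 8137 in DKO and 7344, 10198 and 7259 in WT, where DKO 2 was lowest and WT 2 highest in deposited signal. After centring WT 2 was the lowest array for Gmnn, at 12.502. The weaker second Orc1 probe set read 79.6, 99.0 and 100 in DKO and 175, 402 and 106 in WT, all knockout arrays below all WT arrays, with a difference of -0.51 ± 0.30 without WT 2 (adjusted p by limma = 0.948). Over all tested probe sets 3.29% were lower without overlap with all arrays, and 8.14% without WT 2.

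Of the genes that activate the helicase, Cdc45 read 1341, 1392 and 1683 in DKO and 1579, 1006 and 1597 in WT, Gins1 read 2891, 2452 and 3856 in DKO and 3345, 2258 and 3952 in WT and Gins2 read 2165, 1696 and 2002 in DKO and 2323, 3396 and 1585 in WT. Cdc45 and Gins1 followed the common order, with DKO 1 and DKO 2 low and DKO 3 high, and Gins2 did not, being lowest on WT 3 in deposited signal. After centring Gins2 was lowest on DKO 2, at 10.835, and highest on DKO 3, at 11.291, with DKO 1 above WT 3. Mcm10, which links the helicase to polymerase alpha, read 1485, 1115 and 2721 in DKO and 2069, 2435 and 2434 in WT and had one of the widest ranges. Its log2 values spanned 1.49 over the knockout arrays, and its difference was -0.46 ± 0.44 without WT 2. The differences of the other 3 genes without WT 2 were -0.13 for Cdc45, -0.29 for Gins1 and 0.00 for Gins2.

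The polymerase genes comprise Pola1, Pola2, Prim1 and Prim2 of the complex that makes primers, Pold1 of the main lagging strand polymerase, and Pole and Pole2 of the leading strand polymerase. Pole2 had the largest difference of all members without WT 2. It read 1650, 1555 and 2847 in DKO and 3309, 2663 and 2919 in WT, so that in deposited signal DKO 1 and DKO 2 were well below the other 4 arrays and DKO 3 lay among the WT arrays. Its difference was -0.69 ± 0.35 (SE) without WT 2 (unadjusted p = 0.0896 and adjusted p = 0.948 by limma), and -0.29 ± 0.53 with all arrays. A second, dim Pole2 probe set read 22.3, 26.9 and 37.8 in DKO and 51.1, 172 and 43.7 in WT, lower on every knockout array than on every WT array. Of the 82 tested member probe sets, 3 were lower and 1 higher without overlap with all arrays, and 5 and 1 without WT 2. The lower ones were secondary probe sets of Orc1, Pole2 and Rfc1, joined by Cdc45 and Tyms without WT 2. Over all tested probe sets the shares were 3.29% lower and 6.97% higher, and 8.14% and 10.3% without WT 2. Prim2 read 1207, 1101 and 1670 in DKO and 1540, 4742 and 1880 in WT, with a difference of -0.40 ± 0.31 without WT 2, and here DKO 1 and DKO 2 were lower than each WT array and DKO 3 lay between WT 1 and WT 3. Another Prim2 probe set was brighter on every array but WT 2 and differed by -0.20 without WT 2. Pola1 read 2076, 2163 and 3285 in DKO and 2742, 937 and 3311 in WT and Pole read 1877, 1807 and 2490 in DKO and 2257, 1316 and 2334 in WT, each in the common order with WT 2 as the lowest array. Pola2 (2207, 1920 and 2340 in DKO and 2006, 156 and 2179 in WT), Prim1 (4582, 4068 and 4539 in DKO and 4093, 17232 and 4266 in WT) and Pold1 (6534, 5437 and 6583 in DKO and 6658, 26448 and 6532 in WT) spanned log2 ranges of 0.50, 0.38 and 0.49 on the 5 arrays other than WT 2. In these 3 genes DKO 2 was the lowest of the 5 and DKO 3 the highest after centring. Their differences were 0.02, 0.05 and -0.12 without WT 2.

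Pcna, which encodes the sliding clamp, read 20870, 21870 and 23864 in DKO and 24939, 11588 and 24090 in WT. The knockout arrays lay below WT 1 and WT 3 in deposited signal, by little, and WT 2 lay far below the rest. After centring DKO 3 was the highest array for Pcna, at 14.856 on the log2 scale against 14.820 on WT 3. The difference was 0.53 ± 0.56 (SE) with all arrays and -0.16 ± 0.16 without WT 2, whose 95% interval ran from -0.55 to 0.22. The 5 subunits of the clamp loader that opens PCNA onto DNA were all lower in DKO without WT 2. With all arrays only Rfc4 was lower, at -0.76, and the other subunits differed by 0.46 to 0.98. Rfc1 read 2295, 2232 and 2991 in DKO and 2929, 974 and 2697 in WT and Rfc2 read 2003, 2346 and 4084 in DKO and 2309, 612 and 3304 in WT, both with DKO 3 as the highest array. Rfc3 read 1138, 1777 and 2275 in DKO and 1871, 433 and 1889 in WT, where DKO 1 and DKO 2 differed more than for any other member, by 0.67 on the log2 scale. Rfc4 read 2669, 2193 and 3410 in DKO and 3282, 18943 and 3026 in WT, with WT 2 far above the rest. Rfc5 read 2352, 2019 and 3719 in DKO and 3244, 1173 and 3423 in WT, and its difference of -0.37 ± 0.34 without WT 2 was the largest of the loader. Another, dim probe set of Rfc1 read 90.4, 50.2 and 50.1 in DKO and 166, 185 and 94.1 in WT, with a difference of -0.89 ± 0.32 without WT 2. At an unadjusted p of 0.0296 (adjusted p by limma = 0.948) it was the only one of the 82 tested member probe sets under 0.05. Over all tested probe sets 2.28% were higher and 2.08% lower at that threshold without WT 2.

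RPA, which coats single stranded DNA, is made in part by Rpa1 and Rpa2. FEN1 trims Okazaki fragments and LIG1 seals them. Fen1 read 4011, 3583 and 7116 in DKO and 6241, 24836 and 5830 in WT, so DKO 1 and DKO 2 were below WT 1 and WT 3 and DKO 3 was above both. The difference was -0.38 ± 0.36 without WT 2. Lig1 read 4529, 4445 and 8072 in DKO and 5633, 2154 and 6929 in WT, with the same order and a difference of -0.21 ± 0.36. Rpa1 read 10581, 9848 and 15651 in DKO and 11813, 39291 and 14269 in WT and Rpa2 read 3793, 3344 and 4936 in DKO and 4320, 2395 and 4296 in WT, and in both DKO 2 was the lowest array other than WT 2 and DKO 3 the highest.

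Rrm1 and Rrm2 encode the subunits of ribonucleotide reductase, which makes deoxyribonucleotides. Rrm1 read 7572, 7188 and 10180 in DKO and 9861, 7100 and 10272 in WT, with DKO 3 level with WT 1 and WT 3, and a difference of -0.31 ± 0.25 (SE) without WT 2. Rrm2 read 13170, 12995 and 18880 in DKO and 15995, 64806 and 18300 in WT, a difference of -0.23 ± 0.26 without WT 2. Tk1, thymidine kinase, read 2117, 2310 and 3600 in DKO and 2277, 228 and 2652 in WT, and its difference was 1.51 ± 1.16 with all arrays and 0.06 ± 0.34 without WT 2. Tyms, thymidylate synthase, was dim by every probe set. The brightest read 79.8, 59.0 and 113 in DKO and 69.0, 130 and 126 in WT, near the array medians of 44.0 to 115, and of its 4 probe sets 2 did not pass the filter. Its difference was -0.19 ± 0.42 without WT 2.

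Cyclin E, from Ccne1 and Ccne2, drives entry into S phase with CDK2. Ccne2 read 1006, 1239 and 2369 in DKO and 1625, 289 and 2506 in WT, over a log2 range of 1.502 on the 5 arrays other than WT 2, and DKO 3 and WT 3 were the high arrays. Its difference was 0.74 ± 1.07 (SE) with all arrays and -0.50 ± 0.47 without WT 2. Ccne1 read 1177, 1055 and 1348 in DKO and 1118, 4887 and 1021 in WT and E2f1, an activating E2F factor, read 727, 780 and 1006 in DKO and 736, 620 and 841 in WT, with differences of 0.13 and 0.06 without WT 2, both on the higher side. A second E2f1 probe set read 627, 763 and 574 in DKO and 579, 206 and 506 in WT, higher on every knockout array than on every WT array after centring. Its difference was 0.24 ± 0.23 without WT 2 (adjusted p by limma = 0.948). Over all tested probe sets 6.97% were higher without overlap with all arrays, and 10.3% without WT 2. UHRF1 guides the copying of DNA methylation and CHAF1B places histones on new DNA. Uhrf1 read 9093, 8396 and 12751 in DKO and 9947, 4700 and 11645 in WT and Chaf1b read 929, 1100 and 2280 in DKO and 1381, 591 and 1925 in WT, and Chaf1b had the widest range of all members on the 5 arrays other than WT 2, 1.53 on the log2 scale. Its difference was -0.31 ± 0.47 without WT 2.

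**Figure D3:**
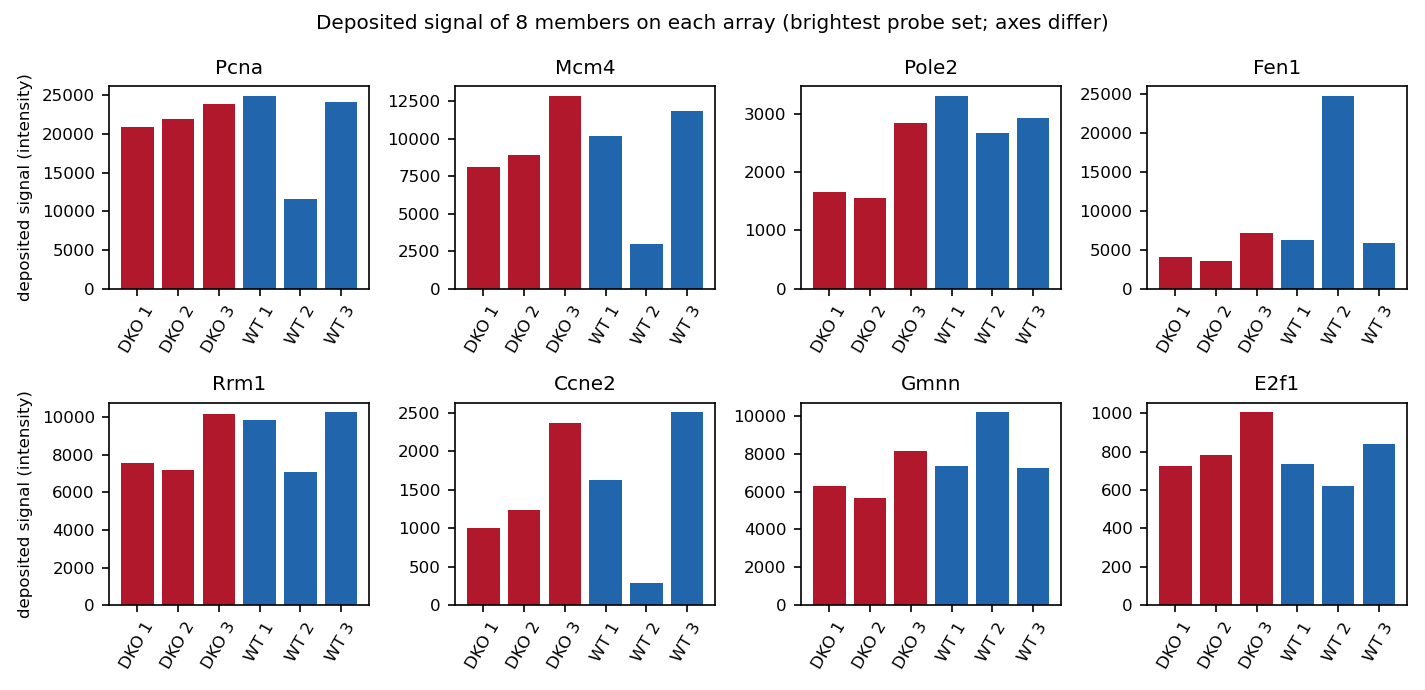
Deposited signal (vertical axis, intensity on a linear scale from 0, with its own range per panel) of the brightest probe set of 8 members on each array, 1 bar per array with DKO in red and WT in blue. For Pole2, Fen1, Rrm1 and Ccne2, DKO 1 and DKO 2 lie below DKO 3, WT 1 and WT 3. WT 2 is far below the rest for Pcna at 11588 and Mcm4 at 2966, and far above them for Fen1 at 24836.

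Probe sets of 1 gene disagreed on WT 2. By their names, probe sets that end in _at were designed to match 1 transcript, those in _a_at transcripts of 1 gene, and those in _s_at and _x_at share probes or similar sequence with further transcripts. In deposited signal, WT 2 was below all other arrays in 38 of 50 tested member probe sets ending in _at, and its median ratio to their mean signal was 0.354. After centring it was below them in 43. WT 2 was above all other arrays in 12 of 13 ending in _x_at in deposited signal, with a median ratio of 3.6, and in 10 after centring. The median ratios were 1.05 for 13 ending in _a_at and 2.16 for 6 ending in _s_at. Over all tested probe sets the median ratio was 1.29 for those ending in _at and 2.81 for those in _x_at. After centring WT 2 was below the others in 53.7% of the former and above them in 53.0% of the latter. Among bright probe sets, those above percentile 80 of the mean, these shares were 84.5% and 63.1%, close to the members' share for _at. Mcm2, Prim1, Prim2 and Rfc4 each had another probe set that was brighter than the representative on every array but WT 2. A single gene could hold both extremes. For Mcm7, which had 4 tested probe sets, the ratio of WT 2 to the others ran from 0.0287 to 2.89, and for Mcm2 from 0.0711 to 2.58. Rpa1 gave 0.0386 and 3.16, Fen1 0.115 and 4.64, Rrm2 0.114 to 4.08, and Rfc4 0.296 and 6.50. Among 30 members with over 1 tested probe set, the sign of the difference disagreed between probe sets in 21 with all arrays and in 8 without WT 2. Of the 41 representative probe sets 22 end in _at and 19 do not, and with all arrays 9 of the 50 tested member probe sets ending in _at were lower in DKO against 12 of the 13 ending in _x_at. The counts over all tested probe sets were 6964 of 20315 ending in _at and 1024 of 1735 ending in _x_at. Among bright probe sets they were 780 of 5572 and 593 of 880. The Mcm2 probe sets gave -0.13 and 1.61 with all arrays and 0.00 and 0.05 without WT 2, and those of Mcm6 gave 1.12 and -0.11, then -0.01 and 0.01. Over the 82 tested probe sets of members 31 were lower with all arrays and 66 without WT 2. Of all tested genes, with 1 probe set each, 29.8% and 48.3% were lower.

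**Figure D4:**
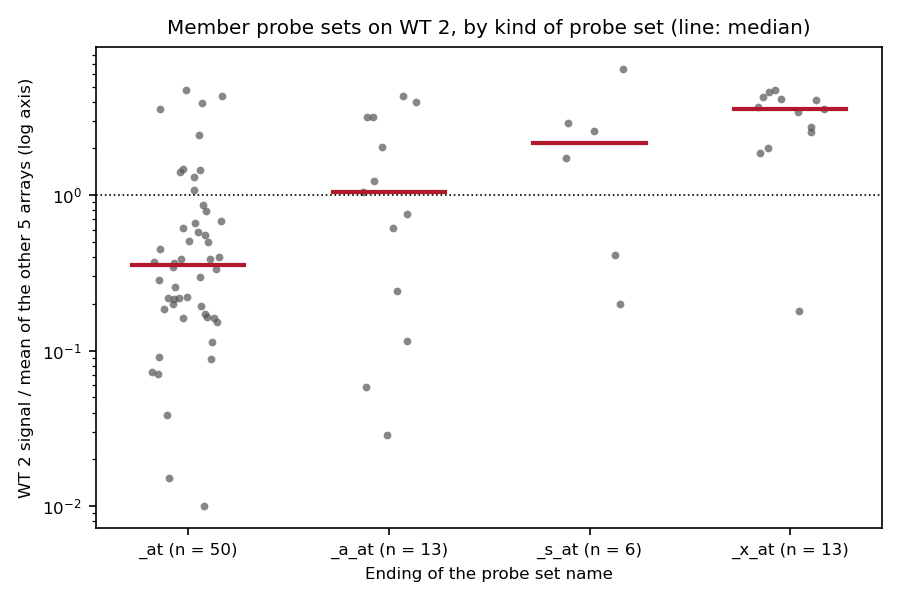
Ratio of the WT 2 signal to the mean of the other 5 arrays (vertical log axis) for the 82 tested member probe sets, grouped by the ending of the probe set name (horizontal axis). Each point is a probe set, red lines are medians and the dotted line marks a ratio of 1. Points ending in _at lie mostly below the line, with a median of 0.354, and points ending in _x_at mostly above it, with a median of 3.6.

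DKO 1 departed from DKO 2 in a few secondary probe sets. The ratio of DKO 1 to DKO 2 was 0.118 for the second Rrm1 probe set, at 196, 1661 and 3639 in DKO and 2232, 22.0 and 3253 in WT. It was 0.246 for a secondary probe set of Mcm3, 0.293 for one of Rpa2, 0.324 for one of Mcm5 and 0.355 for one of Uhrf1. For the brightest probe sets of these genes DKO 1 and DKO 2 were close, as at Rrm1 and Mcm3 above. DKO 1 had the highest Actb and Gapdh 3′ to 5′ ratios of the arrays other than WT 2, at 2.05 and 1.72, and their part in these values was not tested.

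Leaving out DKO 3 as well as WT 2 gave the only calls among members in the fits that left out arrays. Pole2 differed by -1.04 (adjusted p by limma = 0.0188) and Fen1 by -0.76 (adjusted p by limma = 0.0371) between DKO 1 and DKO 2 and WT 1 and WT 3. This fit has 2 arrays per group and called 2.31% of all tested probe sets higher and 1.75% lower. Both members were on the lower side, 2 of 41. With estimated array weights on all 6 arrays limma called 11 members, all lower in DKO, where it called 16.1% of probe sets higher and 14% lower. These weights did not converge and gave WT 1 a weight of 30.8 and WT 2 one of 0.0526. The members were Mcm5, Orc1, Orc6, Cdc6, Cdt1, Mcm10, Pole2, Rfc4, Rfc5, Fen1 and Rrm1.

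Of 42 further replication genes, among them the remaining origin recognition and polymerase subunits, 40 were measured and tested, 0 passed the threshold, and 30 were higher with all arrays and 34 lower without WT 2 (median -0.17). The smallest p without WT 2 were those of Pole4, a small polymerase epsilon subunit (-0.47), and Hells, a chromatin remodeller (-0.48). On DKO 3 31 of the 40 lay above WT 1 and WT 3. Of 17 genes of the E2F and RB families, CDK2 and other regulators of the step from G1 to S, 0 passed. Of these 17, 14 were higher with all arrays and 12 lower without WT 2. Cdc25a, the phosphatase that activates CDK2, read 1111, 1030 and 1402 in DKO and 2318, 4327 and 1749 in WT, lower on all knockout arrays than on all WT arrays, and differed by -0.79 ± 0.27 (SE) without WT 2 (adjusted p by limma = 0.948). Such non-overlap on the lower side held for 3.29% of all tested probe sets with all arrays, and for 8.14% without WT 2. Rb1 differed by 0.36. Of 7 CDK inhibitor genes 6 were tested and 0 passed, with 5 higher with all arrays and 4 lower without WT 2. Cdkn1a, which encodes p21, read 2991, 2922 and 1895 in DKO and 1198, 1413 and 2036 in WT, high on DKO 1 and DKO 2 where the members were low. Its difference was 1.06 ± 0.51 with all arrays and 0.68 ± 0.32 without WT 2 (adjusted p by limma = 0.822 and 0.948). Cdkn1c differed by -0.36 without WT 2.

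Genes of mitosis and the spindle shared the low values on DKO 1 and DKO 2 and stood differently on DKO 3. Of 30 such genes 29 were tested, 0 passed, and all 29 were lower in DKO without WT 2, with a median difference of -0.38. With all arrays 19 were higher and 10 lower, with a median of 0.26. DKO 1 lay below WT 1 and WT 3 in 27 and DKO 2 in 29. DKO 3 lay above both WT arrays in 10 of the 29 mitosis genes and in 36 of the 41 replication members, and with no centring in 5 and 26. DKO 2 was the lowest of the 5 arrays in 27 of 29 mitosis genes and in 24 of 41 members. The difference between these lists was not tested. Nusap1 and Kif2c, spindle genes with the smallest p of the list, differed by -0.45 and -0.63 without WT 2.

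Markers of other marrow cells also differed between these arrays. Among early B cell markers Vpreb1 read 13707 to 51355, Cd79b 4212 to 22357 and Pax5 148 to 340. They did not vary as 1 group. Rag1 and Rag2, the recombinase genes, differed by -1.05 ± 0.41 and -1.08 ± 0.31 (SE) without WT 2, and Dntt, which adds bases at recombined ends, by 2.53 ± 0.91 and Blnk by 0.66 ± 0.25, all with an adjusted p of 0.948 by limma. Dntt read 10162, 10083 and 1079 in DKO and 1314, 3466 and 495 in WT, high on DKO 1 and DKO 2, and Rag1 read 1513, 1200 and 2472 in DKO and 2855, 844 and 4053 in WT, low on these among the arrays other than WT 2. The summed signal of 14 measured granulocyte markers of 16 was 645 to 27986 in DKO and 19379 to 179451 in WT, with 647 on DKO 1, 645 on DKO 2 and 27986 on DKO 3. For 15 measured macrophage and monocyte markers of 16 it was 17832 to 33608 in DKO and 23404 to 118659 in WT. Lyz2 and Ctss alone gave 12911 and 9673 of the 26398 on DKO 1. Of the 14 tested macrophage and monocyte markers 13 were lower and 1 higher in DKO without WT 2, where 48.3% of all tested genes were lower. For 14 measured T, NK and innate lymphoid markers of 16 the summed signal was 881 to 4473 in DKO and 682 to 2454 in WT, with 4473 and 3398 on DKO 1 and DKO 2. Thy1 alone gave 3389 and 1617 of these. Of the 10 tested markers of this list 8 were higher and 2 lower in DKO without WT 2. For 15 pro-B and pre-B cell markers of 17 the summed signal was 88309 to 152447 in DKO and 99454 to 161467 in WT, with the highest knockout values again on DKO 1 and DKO 2. The 9 measured of 12 erythroid and megakaryocyte markers summed to 621 to 4551 in DKO and 2575 to 5532 in WT, and the 11 stromal and endothelial markers, all measured, to 655 to 1240 and 667 to 1256. Pf4 alone gave 3950 of the 4551, on DKO 3. Of the defining markers Mmp9 read 1.77 and 4.02 on DKO 1 and DKO 2, and Ltf 5.32 and 4.44. The part of these cell types in the values of the members was not tested. In samples of mixed cells, fewer cycling cells and less replication RNA per cell cannot be told apart.

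**Figure D5:**
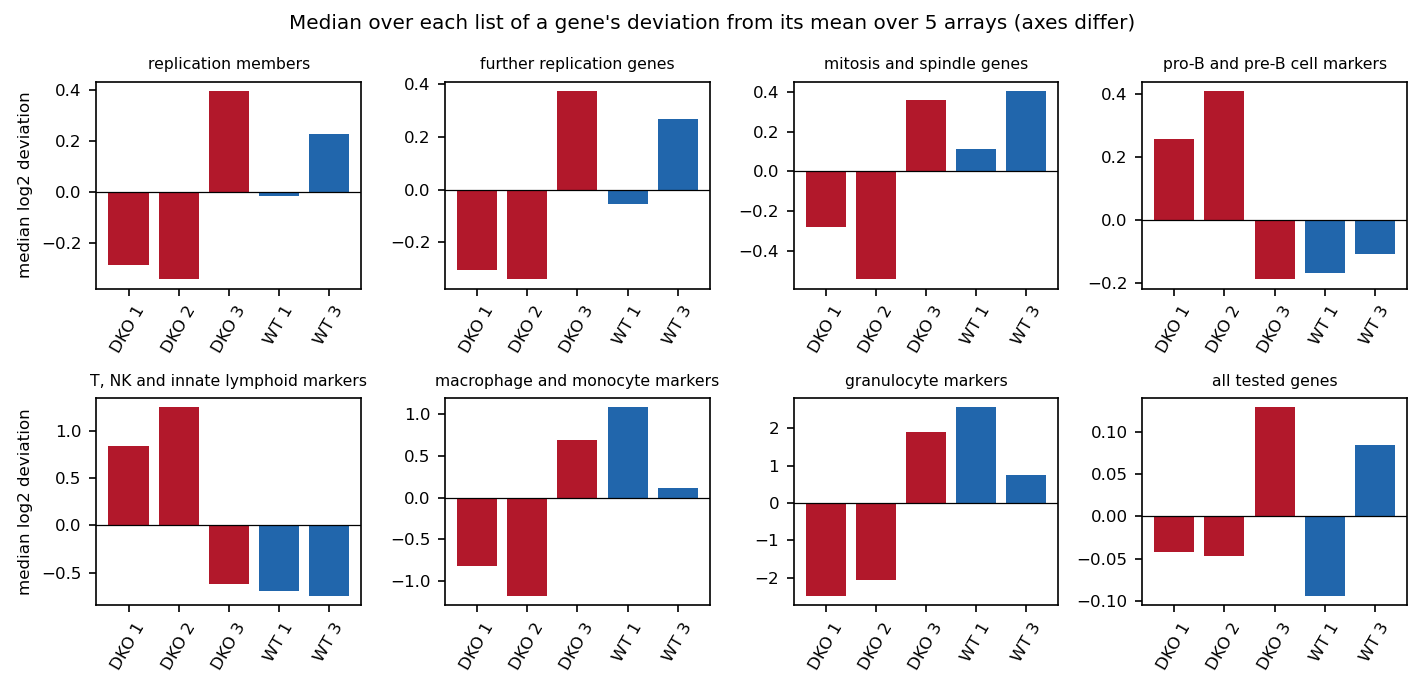
Median over each list of a gene's log2 deviation from its own mean over the 5 arrays other than WT 2 (vertical axis, its own range per panel), 1 bar per array with DKO in red and WT in blue. The replication members and the mitosis genes are low on DKO 1 and DKO 2 and high on DKO 3, as are granulocyte and macrophage markers, and T cell and early B cell markers run the other way.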

How the data were processed

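RNA of 3 DKO and 3 WT samples was hybridised to 1-colour Affymetrix arrays, and 1 intensity per probe set was deposited, summarised by the authors with MAS5 per the submitters' processing notes, with no log applied. On every array the trimmed mean was 500, and scanner files were not used here. Of 45101 probe sets 64 were controls, and 34945 had 1 gene symbol in the platform annotation, 932 several and 9160 none. Of the 34945, 34741 matched a GRCm38.p6 gene.

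From the deposited intensity, log2(intensity + 16) was computed and each array centred on its median. The 27022 probe sets whose mean exceeded percentile 40 were analysed with limma 3.58.1 in R 4.3.3, with a variance trend, two-sided, Benjamini-Hochberg adjusted over all of them, with a threshold of 0.05, with all arrays and without WT 2. The centring, the filter and the probe set of each gene came from all arrays in both fits. The number of arrays limits the precision. The scripts were tested on simulated data. Tables were made in Python 3.11.15.

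All members are named. Signals are given for those without overlap, with discordant probe sets or with the smallest p of a role, and for the other members too. Of other pathway lists the 2 genes with the smallest p without WT 2 are named. Single cell type markers were picked after their values were seen. The members, lists and the exclusion of WT 2 were chosen with earlier results of these data known. Alternatives were other scalings, pseudocounts, filters, variance models, rules for a gene's probe set, the replicate number as a block and each array left out. One promoter sequence is not reported here.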

Additional observations from a re-analysis of the deposited data

How the results depend on the processing

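The count of members called with all arrays was 0 in every alternative tried but array weights, which gave 11. The number of members lower in DKO with all arrays, 16, became 25 with quantile normalization, 34 with array weights and 6 with the mean of a gene's probe sets, and leaving out 1 array gave 14 to 35, the highest without WT 2. Without WT 2, leaving out 1 further array gave 0 to 2 members called, the highest without DKO 3. The median difference with all arrays ran from -0.19 to 0.50 when 1 array was left out, and was -0.06 with quantile normalization, -0.13 with no centring and -0.11 with centring over the tested probe sets. Without WT 2 it ran from -0.44 to -0.07 and stayed below 0 in every alternative run. The cause of these shifts was not tested. With 3 arrays a group, or fewer, the intervals of most members are wide.

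With the replicate number as a block, 0 members were called with all arrays (16 lower, median 0.19) and 0 without WT 2 (26 lower, median -0.07). Same-numbered arrays of the genotypes deviated from their group means with correlations of -0.15, 0.00 and 0.33. Arrays of unlike number gave -0.39 to 0.32. The WT means included WT 2, so these values cannot decide whether the numbers mark pairs. The main fits did not take the numbers as pairs.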
